A study of Mus musculus with 12 samples.

Results

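The 50 genes described here act in mitosis: 11 in mitotic entry, 16 at the kinetochore, the spindle checkpoint and the chromosomal passenger complex, 7 kinesins, 5 other spindle proteins, 9 in mitotic exit and cytokinesis, and 2 chromosome proteins. The rule that picks them uses gene names and no measured value, the list was drawn up with earlier results of these data known, and all 50 were found among 38339 gene identifiers. Their transcripts were measured in mouse T-cell acute lymphoblastic leukemia (T-ALL), an aggressive cancer of immature T cells, after a short exposure to dexamethasone (DEX), a synthetic glucocorticoid used to treat it. The treated recipients received DEX and the others vehicle (VEH), 4 hours before they were killed. Each of 6 primary leukemias on the C57BL/6 x 129Sv/Jae F1 background was transplanted, and 1 moribund recipient per arm gave 1 RNA-seq library of its bone marrow cells after red cell lysis, so 6 DEX and 6 VEH libraries form 6 pairs. By their codes, the leukemias are leukemia 1 (73A-46B), leukemia 2 (73M-19A), leukemia 3 (78A-143B), leukemia 4 (2M-127B), leukemia 5 (20M-116B) and leukemia 6 (JW-81-59B). Both arms share the background, the transplantation and the moribund state, and the labels describe no sorting, so the marrow holds the leukemia with the blood-forming cells that each recipient still had. The dose of DEX and the genetic lesions of the leukemias are not given in the sources used here.

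A cell enters mitosis when cyclin-dependent kinase 1, bound to a B-type cyclin, is freed of the inhibitory phosphate that Wee1 adds and that the Cdc25 phosphatases remove. Kinetochores then bind chromosomes to the spindle while the checkpoint holds back the anaphase-promoting complex, and its activators Cdc20 and Cdh1 later send cyclins and securin for destruction. Transcripts of many of these genes are low in G1 and peak in G2 and mitosis, through promoters bound by NF-Y, MuvB complexes and FOXM1, and glucocorticoids are known to arrest lymphoid leukemia cells in G1.

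The labelled T lineage was checked against 8 markers. Their summed level ranged from 1324 to 1859 FPKM in DEX libraries and from 1384 to 2143 FPKM in VEH libraries (the authors' unit, fragments scaled by transcript length and library size). Of the 8, Cd3g, Lck and Cd2 fell with DEX (37.5%, against 9.28% of all genes tested, limma adjusted p under 0.05). Markers of other marrow cells were also present: 14 granulocyte and monocyte genes summed to 1560 to 5786 FPKM in DEX libraries and 2411 to 9622 FPKM in VEH libraries. Only 1 of them, Ltf, fell (7.14%, against 9.28%), a share near that of all genes. Their median difference, DEX minus VEH in log2(FPKM + 1), was nevertheless -0.46, against -0.05 over all genes tested, and only 2 of 14 differences were above 0. At an unadjusted p under 0.05 in limma, 6 of 14 were lower, against 2534 of 12358 genes. The 10 erythroid genes summed to 16.9 to 152.6 FPKM in DEX libraries and 10.1 to 1209 FPKM in VEH libraries, and the 8 B-lineage genes to 1.14 to 8.40 FPKM with DEX and 1.23 to 51.6 FPKM with VEH. No marker of these 4 lists was at 0 in every library. The files hold no counts, so the depth is not known from them. In such mixed samples fewer cells of a type and less RNA per cell cannot be told apart. Descriptions of 9 libraries end in an S number and those of the DEX libraries of leukemias 2, 5 and 6 do not, so the results are also given within leukemias 1, 3 and 4 and within leukemias 2, 5 and 6.

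Promoters of the members are shown first, because many mitotic genes share 2 short elements. The CCAAT box, which NF-Y binds, was searched by the letters of its name, which read ATTGG when it lies on the opposite strand. The cell cycle genes homology region (CHR), which MuvB complexes bind, was searched as TTTGAA, which reads as TTCAAA when it lies on the opposite strand, and in its variant form, TTCGAA, which reads the same on both strands. Overlapping matches were each counted. The printed windows run from 120 bases before to 30 after the transcription start on the gene's own strand (RefSeq, GRCm38.p6), for 8 of the members that changed with the largest differences. They lie at chr5:30666766-30666915 (Cenpa), chr2:164769809-164769958 (Ube2c), chr2:118598091-118598240 (Bub1b) and chr11:117849117-117849266 (Birc5) on the plus strand and at chr9:70421525-70421674 (Ccnb2), chr15:99651627-99651776 (Racgap1), chr4:118437314-118437463 (Cdc20) and chr7:4812311-4812460 (Ube2s) on the minus strand. Capitals mark each CCAAT box and CHR on either strand.
Ccnb2: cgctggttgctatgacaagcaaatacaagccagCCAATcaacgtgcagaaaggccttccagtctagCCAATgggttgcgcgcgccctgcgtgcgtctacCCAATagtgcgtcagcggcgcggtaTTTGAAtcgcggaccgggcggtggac
Cenpa: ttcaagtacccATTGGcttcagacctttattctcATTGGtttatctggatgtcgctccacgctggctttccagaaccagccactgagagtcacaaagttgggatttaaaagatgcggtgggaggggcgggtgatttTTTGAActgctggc
Racgap1: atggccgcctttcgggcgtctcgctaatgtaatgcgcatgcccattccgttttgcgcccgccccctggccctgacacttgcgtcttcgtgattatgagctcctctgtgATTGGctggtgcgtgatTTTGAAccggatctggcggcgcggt
Ube2c: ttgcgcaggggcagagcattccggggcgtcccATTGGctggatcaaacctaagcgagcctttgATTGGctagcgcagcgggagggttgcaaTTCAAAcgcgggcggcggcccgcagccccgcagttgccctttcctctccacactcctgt
Cdc20: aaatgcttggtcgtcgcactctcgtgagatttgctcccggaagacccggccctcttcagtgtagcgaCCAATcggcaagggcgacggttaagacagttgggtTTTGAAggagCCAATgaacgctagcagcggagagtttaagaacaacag
Bub1b: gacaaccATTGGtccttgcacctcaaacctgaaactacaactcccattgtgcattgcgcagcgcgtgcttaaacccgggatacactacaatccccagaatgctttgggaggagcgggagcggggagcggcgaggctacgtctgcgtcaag
Birc5: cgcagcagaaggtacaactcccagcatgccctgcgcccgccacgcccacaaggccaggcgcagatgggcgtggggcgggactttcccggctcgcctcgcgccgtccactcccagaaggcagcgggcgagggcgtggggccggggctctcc
Ube2s: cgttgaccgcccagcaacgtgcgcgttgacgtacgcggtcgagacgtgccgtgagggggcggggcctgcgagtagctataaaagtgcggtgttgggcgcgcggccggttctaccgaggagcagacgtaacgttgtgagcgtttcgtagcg

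Ccnb2 carries 3 CCAAT boxes before the start and a CHR just after it. Cenpa carries 2 CCAAT boxes and Racgap1 carries 1, each with a CHR after the start, while Ube2c and Cdc20 carry 2 CCAAT boxes and a CHR before it. The printed windows of Birc5 and Ube2s hold no match, and that of Bub1b holds 1 CCAAT box. RefSeq promoters of 300 bases (250 before and 50 after the start) were found for 41 members, with 44 promoters. No promoter was matched for Aurkb, Ccna2, Cdc25c, Foxm1, Incenp, Kif20a, Spc24, Tpx2 and Wee1. A CCAAT box was in 34 of 44 member promoters (77.3%), against 37.4% of 32851 mouse promoters of the same length. A CHR was in 35 of 44 (79.5%), against 19.2%, and both elements together in 30 of 44 (68.2%), against 7.53%. These are counts of letters with no test, and the base composition of the promoters was not matched.

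**Figure D1:**
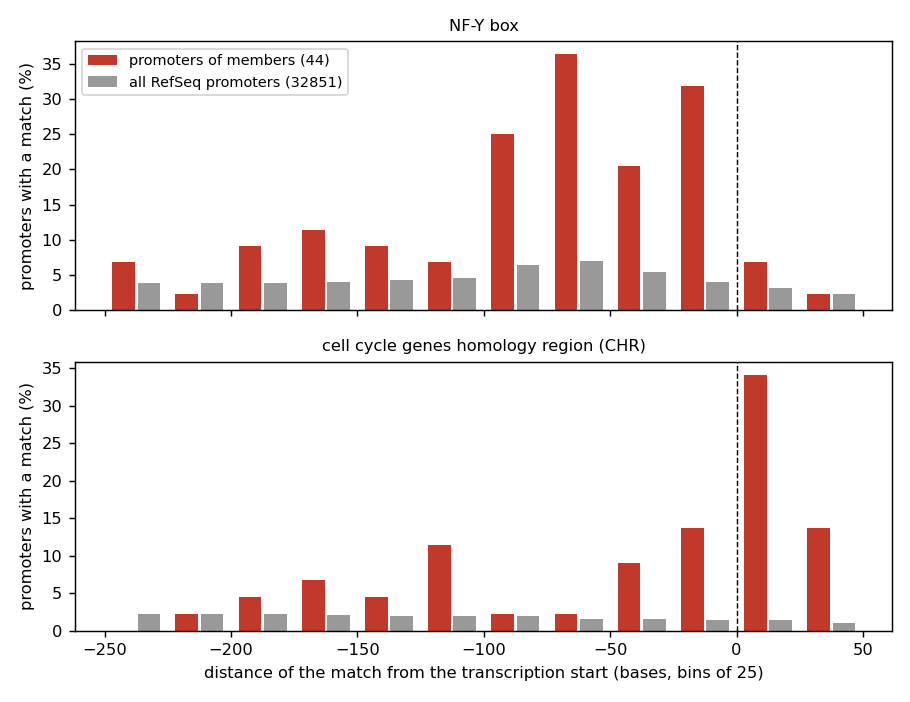
Share of promoters (%, vertical axis) with a match in bins of 25 bases by distance from the transcription start (horizontal axis), for 44 member promoters (red) and 32851 RefSeq promoters (grey), with the CCAAT box above and the CHR below. The tallest red bars stand at 36.4% for the CCAAT box, 75 to 51 bases before the start (all promoters 6.99%), and at 34.1% for the CHR, 0 to 24 bases after it (all promoters 1.43%).

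Matches near the start were also counted. A CHR that began between 30 bases before and 44 after the start was found in 29 of 44 member promoters (65.9%), against 4.14% of all promoters, a window chosen after its values were seen. Among members with a promoter, a CHR was present in 9 of 11 that rose with DEX and in 23 of 30 that did not pass, and a CCAAT box in 8 of 11 and 23 of 30. The 5 with neither were Birc5, Mad2l1, Nuf2, Nusap1 and Pttg1. The difference between members that rose and members that did not pass was not tested.

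DEX was followed by modestly higher levels of 13 of the 50 mitosis genes and a lower level of 1, Wee1, while 36 did not pass (limma with leukemia as a block, adjusted p under 0.05 over 12358 genes). The shares were 26.0% higher and 2.0% lower, against 4.27% higher and 9.28% lower among all genes tested. The mean difference, DEX minus VEH in log2(FPKM + 1), was above 0 for 45 of 50 members (90.0%), against 39.7% of all genes tested. Its median was 0.22 for the members and -0.05 for all genes tested. DEX was above VEH in all 6 leukemias for 12 members, against 5.97% of all genes, and below it in all 6 for 1, against 13.7%. The ranges of the 6 DEX and 6 VEH libraries overlapped for every one of the 50. Over all genes, DEX libraries lay entirely above VEH libraries for 0.388% and entirely below for 1.34%.

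**Figure D2:**
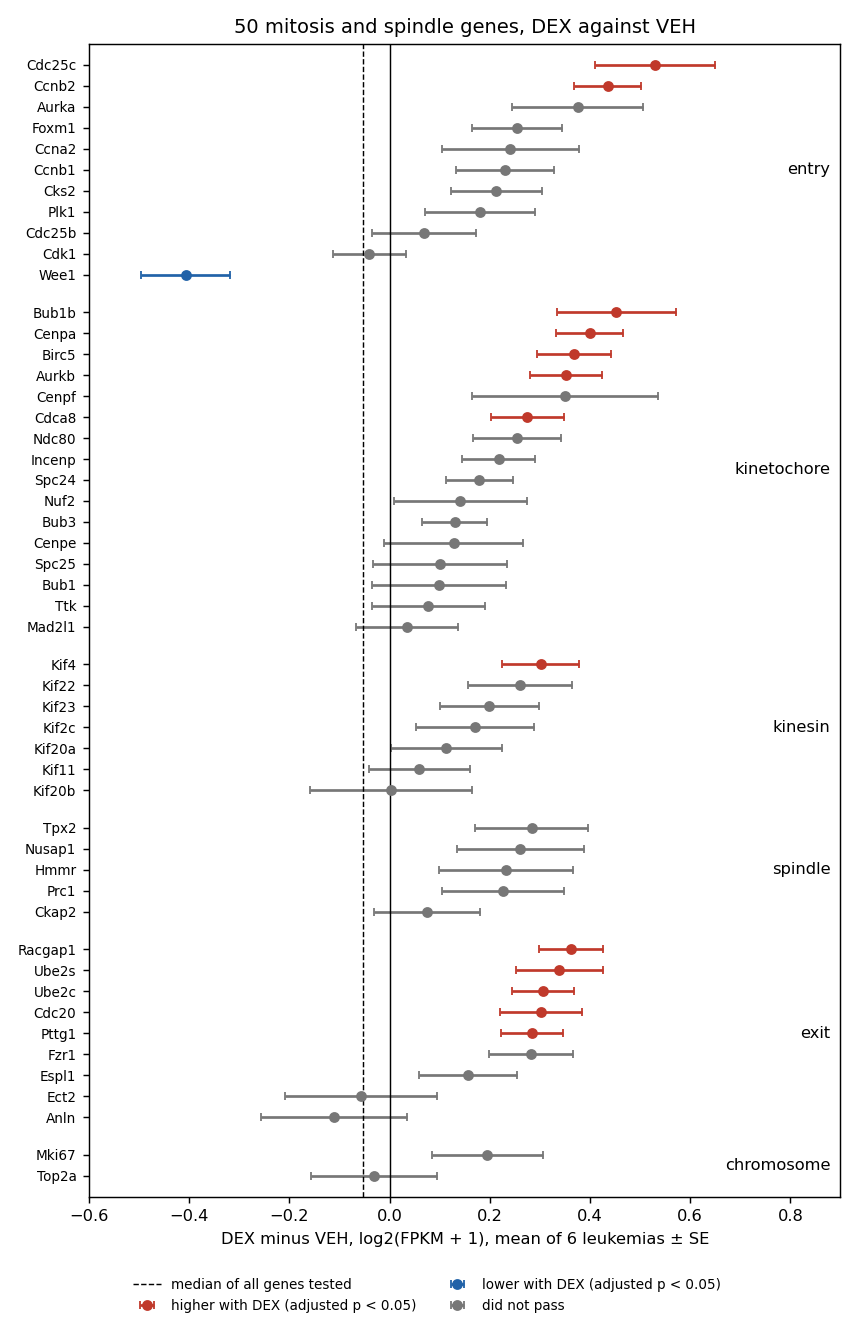
Difference between DEX and VEH for each of the 50 genes by group (horizontal axis, log2(FPKM + 1), mean of 6 leukemias ± SE). Red points rose, the blue point fell and grey points did not pass; the dashed line is the median of 12358 genes, and 45 of 50 points lie to the right of 0.

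The count of rises depended on the scaling. FPKM sums of the DEX libraries without an S number, in leukemias 2, 5 and 6, were 1910539, 1799765 and 2019058. Their VEH pairs had 1507527, 1556034 and 1664239. In leukemias 1, 3 and 4 the sums were 1466471, 1725639 and 1675308 with DEX and 1485323, 1746848 and 1629316 with VEH. Rescaling therefore lowered DEX against VEH mainly in leukemias 2, 5 and 6, and it was not run within the 2 sets of leukemias. Rescaling each library to a fixed sum (TPM) moved the median of all genes to -0.17 and left 0 members higher with limma, against 2.30% of all genes, with 6 higher at an unadjusted p under 0.05, against 23 before rescaling, and the smallest adjusted p of a higher member was 0.054. Median-of-ratios scaling gave 19 higher members and quantile normalization 14. The median of the members lay 0.28 above that of all genes as deposited, 0.28 with median-of-ratios scaling, 0.27 with quantile normalization and 0.25 in TPM. Of the members, 47, 48, 46 and 45 lay above the median of all genes. TPM and median-of-ratios scaling divide each library by a single factor, which shifts its genes almost alike. This distance could therefore hardly change, and it does not show whether the rise depends on the scaling. Single leukemias also moved the count, together with the share of all genes called higher. It was 4 without leukemia 1 (8.0%, against 2.17% of all genes), 5 without leukemia 4 (10.0%, against 2.27%) and 3 without leukemia 5 (6.0%, against 1.89%). It was 13 without leukemia 2 (26.0%, against 2.93%), 9 of 50 without leukemia 3 (against 3.94%) and 15 of 50 without leukemia 6 (against 4.30%).

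Among the 11 genes of mitotic entry, 2 rose, 1 fell and 8 did not pass. Ccnb2 encodes the mitotic cyclin B2 (ENSMUSG00000032218, GRCm38 chr9:70407692-70421547). Its lowest, median and highest levels were 56.1, 79.1 and 88.0 FPKM in DEX libraries, against 45.2, 56.6 and 65.8 FPKM in VEH libraries. DEX was higher in 6 of 6 leukemias although the groups overlapped, by 0.44 ± 0.07 log2 (SE, n = 6, limma adjusted p = 0.00553). Cdc25c, a phosphatase that activates Cdk1 (chr18:34732993-34751533), had 6.48, 15.1 and 18.8 FPKM with DEX, against 6.43, 9.55 and 11.3 FPKM with VEH. It rose by 0.53 ± 0.12 (limma adjusted p = 0.0224), with single differences between 0.01 in leukemia 6 and 0.94, and 12.7% of its exon bases overlap Gm3550 on the opposite strand. Wee1, the kinase that adds the inhibitory phosphate to Cdk1 (chr7:110122046-110143286), had 6.21, 8.17 and 11.2 FPKM with DEX and 9.43, 10.6 and 14.0 FPKM with VEH. It fell by 0.41 ± 0.09 on the log2 scale (limma adjusted p = 0.0200) and was lower in 6 of 6 leukemias, with differences from -0.70 to -0.22.

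Cdk1 itself, the kinase of mitotic entry, had 60.4, 108.4 and 146.5 FPKM in DEX libraries and 72.6, 114.9 and 129.8 FPKM in VEH libraries. DEX was higher in 3 of 6 leukemias, and the difference was -0.04 ± 0.07 (limma adjusted p = 0.746). Cks2, a small subunit that binds Cdk1, had 83.2, 130.8 and 165.5 FPKM with DEX, against 83.4, 107.6 and 127.5 FPKM with VEH (0.21 ± 0.09, limma adjusted p = 0.151). The spindle pole kinase gene Aurka stood at 0.38, the transcription factor gene Foxm1 at 0.25, the cyclin genes Ccna2 and Ccnb1 at 0.24 and 0.23, the mitotic kinase gene Plk1 at 0.18 and the phosphatase gene Cdc25b at 0.07, and none of these 6 passed. Without leukemia 5, which had the largest Cdc25c difference, Cdc25c stood at 0.45 and Wee1 at -0.43 (limma adjusted p = 0.0737 and 0.0573). Without leukemia 1 both also missed the threshold, at 0.50 and -0.43 (limma adjusted p = 0.0719 and 0.0506), and Cdc25c missed it without leukemia 3 or 4 (limma adjusted p = 0.0528 and 0.0650).

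**Figure D3:**
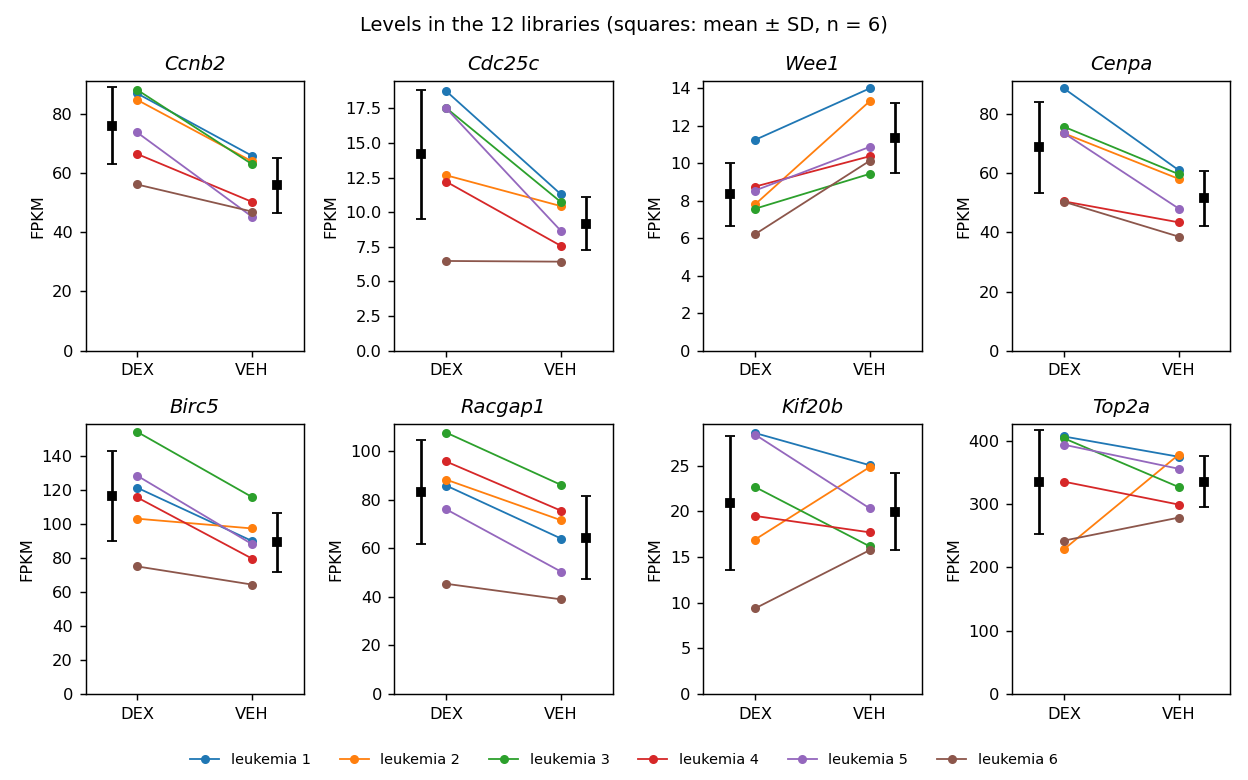
Levels of 8 of the genes in the 12 libraries (vertical axis, FPKM from 0), DEX left of VEH, with a line joining the libraries of each leukemia and squares for mean ± SD (n = 6). Lines of Ccnb2, Cdc25c, Cenpa, Birc5 and Racgap1 are higher at DEX in 6 of 6 leukemias and lines of Wee1 lower in 6 of 6, while those of Kif20b and Top2a cross, with leukemias 2 and 6 lower at DEX.

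At the kinetochore, in the spindle checkpoint and in the passenger complex, 5 of 16 genes rose and 11 did not pass. Cenpa, the histone H3 variant that marks centromeres (chr5:30666777-30674830), had 50.4, 73.6 and 88.7 FPKM (lowest, median and highest) in DEX libraries, against 38.6, 53.1 and 61.1 FPKM in VEH libraries. It rose in 6 of 6 leukemias, by 0.40 ± 0.07 (limma adjusted p = 0.00740). The chromosomal passenger complex, which corrects faulty attachments and guides cytokinesis, rose in 3 of its 4 genes. Its targeting subunit Birc5, or survivin (chr11:117849251-117855743), had 75.2, 118.7 and 154.5 FPKM with DEX and 64.5, 89.2 and 116.04 FPKM with VEH (0.37 ± 0.07, limma adjusted p = 0.0151). Its kinase Aurkb (chr11:69045647-69051664) had 46.8, 64.2 and 72.2 FPKM with DEX and 33.2, 48.8 and 61.8 FPKM with VEH (0.35 ± 0.07, limma adjusted p = 0.0158). The subunit gene Cdca8, borealin, averaged 52.3 ± 11.3 FPKM with DEX and 42.6 ± 6.46 FPKM with VEH (SD, n = 6 each, limma adjusted p = 0.0394). The scaffold gene Incenp was higher in 6 of 6 leukemias by 0.22 ± 0.07 and did not pass (limma adjusted p = 0.0811).

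Of the checkpoint genes, Bub1b, which encodes BubR1, averaged 91.1 ± 32.8 FPKM with DEX and 63.8 ± 16.03 FPKM with VEH (0.45 ± 0.12, limma adjusted p = 0.0371) and was higher in 5 of 6 leukemias. Its partner gene Bub3 had 60.5, 71.6 and 83.1 FPKM with DEX and 58.0, 63.5 and 77.8 FPKM with VEH (0.13 ± 0.06, limma adjusted p = 0.212). Mad2l1, which encodes the Cdc20 inhibitor MAD2, had 38.3, 61.2 and 82.7 FPKM with DEX, against 45.1, 62.4 and 73.5 FPKM with VEH, and its difference was 0.03 ± 0.10 (limma adjusted p = 0.846). The checkpoint kinases Bub1 and Ttk stood at 0.10 and 0.08. The microtubule-binding Ndc80 complex had Ndc80 at 0.25, Spc24 at 0.18, Nuf2 at 0.14 and Spc25 at 0.10, and none of its 4 genes passed. The kinetochore proteins Cenpe and Cenpf stood at 0.13 and 0.35, with Cenpf spread from -0.58 in leukemia 6 to 0.93. Cenpa passed whichever leukemia was left out. Aurkb and Birc5 missed the threshold without leukemia 1 (limma adjusted p = 0.0503 and 0.0522) and without leukemia 5 (limma adjusted p = 0.0573 and 0.0574), Birc5 also without leukemia 4 (limma adjusted p = 0.0516), and Bub1b and Cdca8 with leukemia 1, 3, 4 or 5 left out (limma adjusted p from 0.0702 to 0.125).

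Of the 7 kinesins, motors that move along or take apart microtubules, 1 rose and 6 did not pass. Kif4, the chromosome-bound motor that shapes the anaphase midzone (chrX:100625737-100727214), had 20.6, 28.8 and 36.3 FPKM (lowest, median and highest) with DEX, against 17.1, 23.8 and 26.1 FPKM with VEH. It rose by 0.30 ± 0.08 (limma adjusted p = 0.0337), in 5 of 6 leukemias, and 15.1% of its exon bases overlap Pdzd11 on the opposite strand. Leaving out any leukemia but leukemia 2 ended the Kif4 call, with limma adjusted p from 0.0516 to 0.113. Kif11, the motor that separates the spindle poles, had 56.5, 80.1 and 101.0 FPKM with DEX and 62.9, 75.7 and 83.4 FPKM with VEH (0.06 ± 0.10, limma adjusted p = 0.727). Kif22, a motor that pushes chromosome arms, had 24.9, 52.6 and 60.2 FPKM with DEX and 24.6, 40.2 and 48.3 FPKM with VEH (0.26 ± 0.10, limma adjusted p = 0.129). The others were the cytokinesis motors Kif23 (0.20), Kif20a (0.11) and Kif20b (0.0035) and the microtubule depolymerase Kif2c (0.17). Kif20b joined rises of up to 0.46 with a difference of -0.69 in leukemia 6.

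None of the 5 other spindle genes passed with limma, and 1 had an unadjusted p under 0.05. Nusap1, which bundles spindle microtubules, had 42.4, 67.2 and 81.4 FPKM with DEX, against 43.5, 54.1 and 55.9 FPKM with VEH (0.26 ± 0.13, limma adjusted p = 0.204). Tpx2, the activator of Aurora A on the spindle, had 33.1, 64.1 and 90.5 FPKM with DEX and 32.9, 51.2 and 64.0 FPKM with VEH (0.28 ± 0.11, limma adjusted p = 0.132). The midzone bundler Prc1 stood at 0.23, the spindle-associated Hmmr at 0.23 and Ckap2 at 0.08. The median of the 5 was 0.23, as in mitotic entry. Their errors of 0.11 to 0.13 lay within the range in mitotic entry, from 0.07 for Ccnb2 to 0.14 for Ccna2.

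Of the 9 genes of mitotic exit and cytokinesis, 5 rose (55.6%, against 4.27% of all genes tested) and 4 did not pass, the largest share of rises among the 6 groups. The groups are small and were not compared by a test. Median differences were 0.28 for the exit genes and 0.23 for mitotic entry and for the other spindle genes. Racgap1, part of the centralspindlin complex that positions the cleavage furrow (chr15:99620496-99651656), had 45.4, 87.2 and 107.8 FPKM (lowest, median and highest) with DEX, against 39.0, 67.9 and 86.2 FPKM with VEH. It rose in 6 of 6 leukemias by 0.36 ± 0.06 (limma adjusted p = 0.00864). Ube2c and Ube2s, the ubiquitin-conjugating enzymes of the anaphase-promoting complex that start and extend ubiquitin chains, both rose. Ube2c (chr2:164769898-164778822) had 67.6, 80.4 and 97.3 FPKM with DEX and 52.4, 67.0 and 75.4 FPKM with VEH (0.31 ± 0.06, limma adjusted p = 0.0158), and 22.8% of its exon bases overlap Tnnc2 on the opposite strand. Ube2s averaged 260.8 ± 27.4 FPKM with DEX and 208.9 ± 45.96 FPKM with VEH (0.34 ± 0.09, limma adjusted p = 0.0342) and was higher in 5 of 6 leukemias. Of its exon bases, 3.56% overlap Rpl28 on the opposite strand. Cdc20, the activator of the complex, averaged 58.4 ± 13.0 FPKM with DEX and 47.2 ± 11.6 FPKM with VEH (0.30 ± 0.08, limma adjusted p = 0.0405). Pttg1, which encodes securin, the inhibitor of separase (chr11:43420250-43426251), had 22.7, 30.2 and 38.5 FPKM with DEX and 19.1, 24.98 and 33.8 FPKM with VEH (0.28 ± 0.06, limma adjusted p = 0.0200).

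Of the exit genes that did not pass, Fzr1, which encodes the late activator Cdh1, had 22.5, 27.4 and 29.2 FPKM with DEX and 17.04, 21.4 and 28.0 FPKM with VEH. It was higher in 6 of 6 leukemias by 0.28 ± 0.08 (limma adjusted p = 0.0546). Ect2, the exchange factor that activates RhoA for furrowing, had 21.9, 47.9 and 78.8 FPKM with DEX, against 33.8, 47.1 and 62.4 FPKM with VEH (-0.06 ± 0.15, limma adjusted p = 0.832). The gene of separase, Espl1, stood at 0.16 and that of the furrow protein anillin, Anln, at -0.11, with -0.83 in leukemia 2. Racgap1 passed whichever leukemia was left out. Without leukemia 5, Ube2c, Pttg1, Ube2s and Cdc20 missed the threshold (limma adjusted p = 0.0619, 0.0737, 0.108 and 0.0939), and so did Ube2c, Ube2s and Cdc20 without leukemia 1 (0.0554, 0.0752 and 0.104), Pttg1, Ube2s and Cdc20 without leukemia 4 (0.0586, 0.0809 and 0.0935), Ube2s and Cdc20 without leukemia 2 (0.0855 and 0.0651), Cdc20 without leukemia 3 (0.0526) and Ube2s without leukemia 6 (0.0763).

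Both chromosome proteins had high levels and did not pass, with 0 of 2 at an unadjusted p under 0.05 in limma. Top2a, the topoisomerase that untangles sister chromatids, had the highest mean of the 50 genes. Its levels were 228.3, 364.4 and 406.6 FPKM with DEX, against 278.5, 341.1 and 378.0 FPKM with VEH (-0.03 ± 0.13, limma adjusted p = 0.886). Mki67, the proliferation marker that coats mitotic chromosomes, had 133.1, 219.1 and 328.8 FPKM with DEX and 148.3, 192.1 and 239.2 FPKM with VEH (0.19 ± 0.11, limma adjusted p = 0.270). The DEX values spread more widely than the VEH values for both genes.

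Each leukemia gave a single DEX and VEH pair, so differences in response between leukemias were not tested. DEX was above VEH for 49 of 50 members in leukemia 1, 20 in leukemia 2, 48 in leukemia 3, 46 in leukemia 4, 49 in leukemia 5 and 20 in leukemia 6. Over all genes tested these shares were 44.9%, 38.9%, 46.4%, 48.3%, 44.4% and 39.5%, so the 20 of 50 members in leukemias 2 and 6 lay close to the share of all genes. The median difference of the members was 0.36, -0.18, 0.31, 0.29, 0.50 and -0.07 in leukemias 1 to 6, against -0.03, -0.12, -0.02, -0.01, -0.03 and -0.09 over all genes tested. In leukemia 2, 0 of 7 kinesins and 0 of 5 other spindle genes were above VEH, while 6 of 9 exit genes were, at a median of 0.08. In leukemia 6, 2 of 7 kinesins and 7 of 9 exit genes were above VEH, the exit genes at a median of 0.23. Summed over the 50 genes, the level in leukemia 2 was 2874 FPKM with DEX and 3121 FPKM with VEH, and in leukemia 6 it was 2088 FPKM with DEX and 2109 FPKM with VEH. In leukemia 5 it was 3659 FPKM with DEX and 2687 FPKM with VEH. The 12 members higher with DEX in all 6 leukemias, Ccnb2, Cenpa, Racgap1 and Pttg1 among them, rose in leukemias 2 and 6 too, and so did Ube2s.

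**Figure D4:**
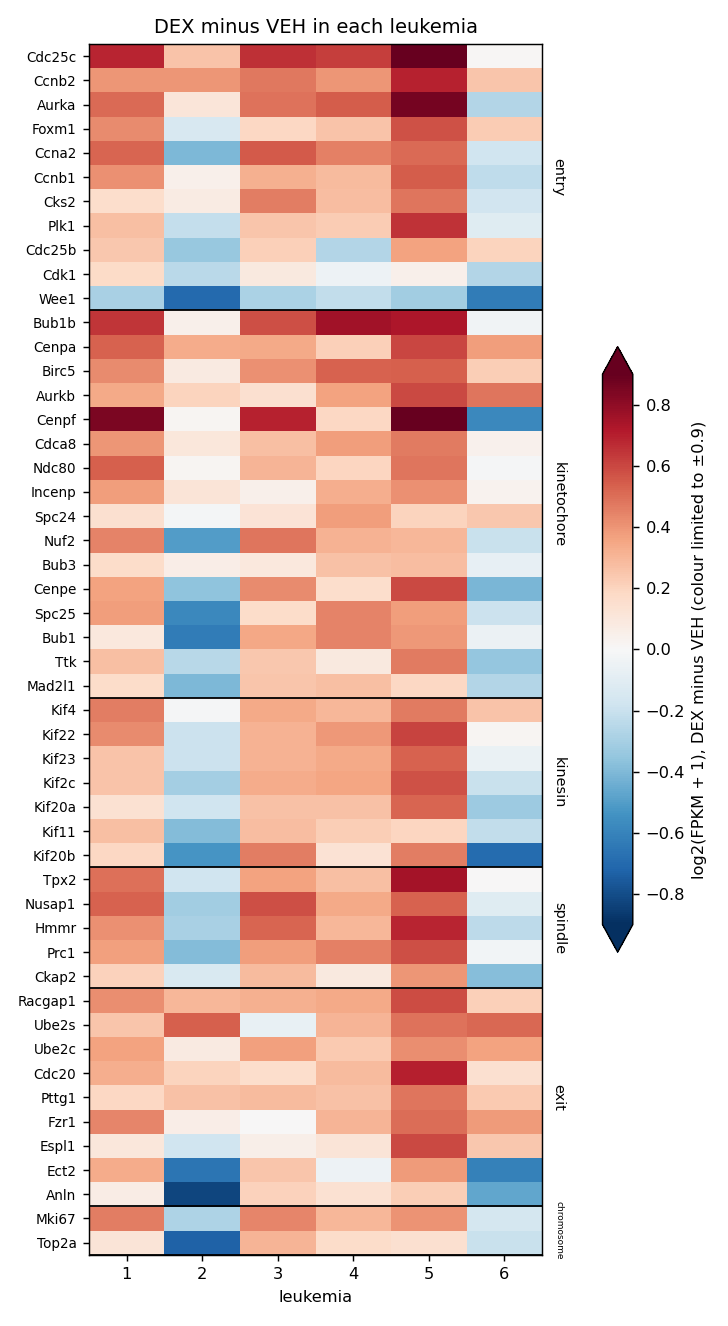
DEX minus VEH in log2(FPKM + 1) for each of the 50 genes (rows, by group) in each of the 6 leukemias (columns); red is higher with DEX, blue lower, and colours are limited to ±0.9. Leukemias 1, 3, 4 and 5 are red in 46 to 49 rows, and leukemias 2 and 6 in 20 each.

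Markers of other marrow cells also differed between DEX and VEH within leukemias. The log2 ratio of the summed granulocyte and monocyte markers, DEX over VEH, was -0.73, -1.48, 0.54, -0.05, -0.53 and -1.34 in leukemias 1 to 6. Leukemias 2 and 6 had the lowest ratios, followed by leukemias 1 and 5, where most members were higher with DEX. The log2 ratio of the erythroid markers was -1.89, -2.99, 0.30, -0.40, 0.74 and 0.61, and that of the T-lineage markers lay between -0.21 and -0.06. The part of these cells in the mitosis genes was not tested. Within leukemias 1, 3 and 4, limma called 17 members higher (34.0%, against 3.20% of all genes) at a median of 0.30, and 7 of the 13 were among them. Within leukemias 2, 5 and 6 it called 1, Ube2s (2.0%, against 2.15% of all genes), at a median of 0.12. Each of these fits had 2 residual degrees of freedom, and the difference between them was not tested. In leukemias 2, 5 and 6 the DEX libraries lack the S number and the VEH libraries have it. Treatment and this label cannot be told apart there. The members' medians in these leukemias were unlike, at -0.18, 0.50 and -0.07.

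The level of mitosis genes differed between the leukemias beyond the spread left within pairs for 34 of 50 members (68.0%), against 51.1% of all genes tested (limma F test, adjusted p under 0.05). Leukemia 6 was the lowest of the 6 for 49 of 50, over the mean of its 2 libraries, and the exception was Bub3, lowest in leukemia 2. Leukemia 1 was the highest for 35, leukemia 3 for 12 and leukemia 5 for 3. The median level of the 50 was 54.1, 43.6, 49.2, 44.1, 48.3 and 28.0 FPKM in leukemias 1 to 6. Cdc25b had the widest range, 74.7 FPKM in leukemia 1 and 20.5 FPKM in leukemia 6, a ratio of 3.64 (limma adjusted p = 0.000639), and Racgap1 the smallest p, with a ratio of 2.30 (limma adjusted p = 0.000415). The narrowest was Spc24, with a ratio of 1.33. The differences rested most on leukemia 6: without it 7 members differed (14.0%), against 37.4% of all genes. Without leukemia 1, 21 members differed (42.0%, against 42.6%), a share near that of all genes. Without leukemia 2 the count was 45 (90.0%, against 54.3%). Among the 5 leukemias other than leukemia 6, neighbouring medians of 43.6 and 44.1, or 48.3 and 49.2 FPKM, lay close together.

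A second list of 79 mitosis genes outside the 50 had 9 that rose and 70 that did not pass (11.4%, against 4.27% of all genes), with a median of 0.11. Cenpn, a centromere protein that binds CENP-A, rose by 0.66 ± 0.10, with 19.2 ± 4.99 FPKM in DEX libraries and 11.7 ± 3.24 FPKM in VEH libraries (SD, n = 6 each, limma adjusted p = 0.00473). Cdca3, a trigger of mitotic entry, rose by 0.41 (limma adjusted p = 0.00686), Fam83d, a spindle protein, by 0.46 (limma adjusted p = 0.0128) and Tacc3, which stabilises kinetochore fibres, by 0.27 (limma adjusted p = 0.0221). Of 40 genes listed for DNA replication, which precedes mitosis, 11 fell and 29 did not pass (27.5%, against 9.28% of all genes), at a median of -0.18. The origin recognition gene Orc1 had 6.52 ± 0.93 FPKM with DEX and 9.37 ± 1.29 FPKM with VEH (-0.47 ± 0.09, limma adjusted p = 0.0154), and the uracil glycosylase gene Ung 8.46 ± 2.49 FPKM with DEX and 14.0 ± 3.20 FPKM with VEH (-0.68 ± 0.14, limma adjusted p = 0.0161). The helicase subunit gene Mcm4 and the licensing factor gene Cdc6 stood at -0.54 and -0.62. The lists share the same libraries, and no test of the difference between them was made. In TPM 1 of the other mitosis genes rose (1.27%, against 2.30% of all genes) and 17 replication genes fell (42.5%, against 16.6%). Median-of-ratios scaling gave 13 that rose (16.5%, against 5.53%) and 5 of 40 that fell (against 5.81%). Without leukemia 5, 2 other mitosis genes rose (2.53%, against 1.89%) and 1 replication gene fell (2.5%, against 3.40%), so both shares lay near those of all genes. The other mitosis genes that rose numbered 3 without leukemia 1 (3.80%, against 2.17%), 6 without leukemia 2 (7.59%, against 2.93%) and 3 without leukemia 4 (3.80%, against 2.27%). The replication genes that fell numbered 4 without leukemia 1 (10.0%, against 3.96%) and 6 without leukemia 2 (15.0%, against 6.12%).

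**Figure D5:**
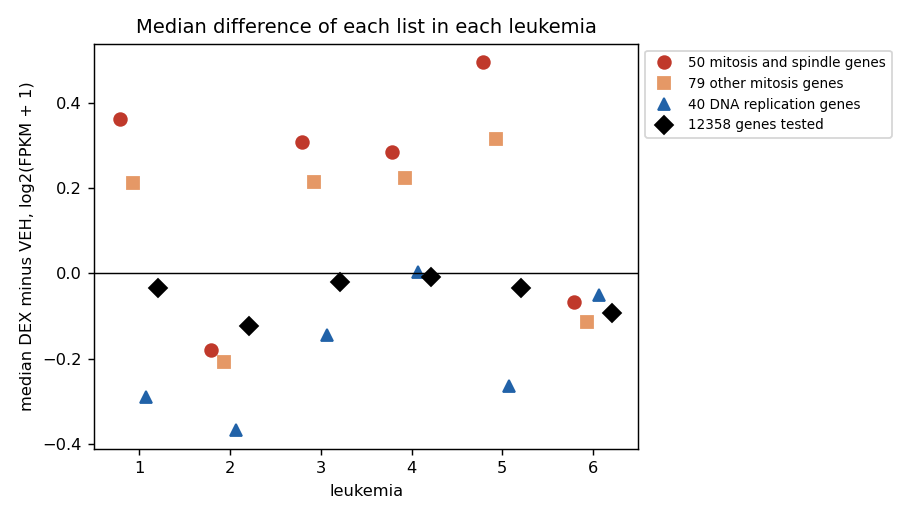
Median difference, DEX minus VEH in log2(FPKM + 1) (vertical axis), in each leukemia (horizontal axis) for the 50 mitosis and spindle genes, 79 other mitosis genes, 40 DNA replication genes and all 12358 genes tested. The members stand at 0.29 to 0.50 in leukemias 1, 3, 4 and 5 and at -0.18 and -0.07 in leukemias 2 and 6, and the replication genes lie below the members in 5 of 6 leukemias.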

How the data were processed

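RNA-seq of 12 bone marrow libraries was analysed from 1 table of FPKM, made and deposited by the authors on a linear scale for 38339 gene identifiers. Per the submitters' processing notes, the tools were Bowtie2 (version 2), RSEM and edgeR with the build mm10; their roles, the annotation and the use of strand in counting are not given in the sources used here. Per the labels' protocols, a stranded total RNA kit and paired 100 bp reads were used. The groups came from the labelled treatment, and pairs from the leukemia code in the titles. After removal of group means, the correlation across genes was 0.551 to 0.817 between the 2 libraries of a leukemia and -0.340 to 0.205 between those of other pairs, so leukemia was kept as a block. Each arm is 1 mouse.

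Values were analysed as log2(FPKM + 1), which understates changes of low genes. Genes with at least 1 FPKM in at least 6 of 12 libraries were tested (12358, all 50 members among them) in limma 3.58.1 (R 4.3.3) by a two-sided moderated test with a variance trend, with 5 degrees of freedom left and 3.995 from the prior, and Benjamini-Hochberg adjustment over all of them at 0.05. The method was tested on simulated data with noise drawn separately for each gene, so shifts shared by many genes were not covered. FPKM were summed over marker lists, errors of log2 differences are SE, and those of FPKM are SD. The sum of FPKM per library was 1466471 to 2019058, and the number of genes at 1 FPKM or more 11778 to 12970. Coordinates are from GENCODE M21 (GRCm38), and 4 genes of the second mitosis list were matched by Ensembl identifier.

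The members, lists and tests were chosen with earlier results of these data known. Levels are given for up to 3 members a group with the smallest adjusted p past the threshold and for 2 with the highest mean that did not pass; promoters for the 8 members past the threshold with the largest differences that have one in RefSeq and lie on a chromosome other than 18. Alternatives were the pseudocount, filter, scaling, block, trend, the 2 sets of leukemias and each leukemia left out.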

Additional observations from a re-analysis of the deposited data

Results flagged for a closer look

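Of 150 sets of 6 values checked (levels in DEX libraries, levels in VEH libraries and differences of each of the 50 genes), 4 had 1 library or leukemia far from the others, and chance alone gives about 1 in 20 sets. The Cdc20 difference, DEX minus VEH, was 0.70 on the log2 scale in leukemia 5, and the next highest was 0.33. The Pttg1 difference was 0.48 in leukemia 5, and the next highest was 0.28. Incenp was at 28.9 FPKM in the DEX library of leukemia 6, and the next lowest DEX library was at 50.5 FPKM. Bub3 was at 77.8 FPKM in the VEH library of leukemia 3, and the next highest VEH library was at 64.8 FPKM. The causes were not tested.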

How the results depend on the processing

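None of the 14 called members changed direction in 17 alternatives. The alternatives reuse the libraries that the calls came from, so a turn of direction was unlikely from the start. The 14 members kept their call in 140 of 238 cases, least often Cdc20 (lost in 11 of 17) and most often Ccnb2 and Racgap1 (lost in 3). Against 13 members higher and 1 lower, 528 and 1147 of all genes, 9 other mitosis genes higher, 11 replication genes lower and 34 members that differed between leukemias, no filter on low values gave 5 and 0, 181 and 370, 3, 1 and 18, with 27663 genes tested. Without the replicate block, limma called 0 members higher and 0 lower (7 higher at an unadjusted p under 0.05), 35 and 46 of all genes, 0 other mitosis and 0 replication genes. Rescaling to TPM gave 0 members higher, 261 and 1889 of all genes, 1 other mitosis gene higher and 1 lower, and 17 replication genes. Median-of-ratios scaling gave 718 of all genes and 5 replication genes lower. A minimum of 3 FPKM gave 1 other mitosis gene lower. The median of all genes was 0.0024 with no filter, 0.0010 with median-of-ratios scaling and -0.17 in TPM. Leukemias 1, 3 and 4 gave 0 members, 525 of all genes and 2 replication genes lower. Leukemias 2, 5 and 6 gave 1 member higher and 0 lower, 270 and 275 of all genes, 0 other mitosis genes, 3 replication genes and 20 members between leukemias. Leaving out single leukemias gave 3 to 15 members higher and 0 to 1 lower, 234 to 537 and 420 to 1035 of all genes, 2 to 12 other mitosis genes, 1 to 12 replication genes and 7 to 45 members between leukemias.

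Directions turned only for members that did not pass. In TPM the log2 difference put Cdc25b at -0.0652, Bub1 at -0.0334, Bub3 at -0.0067, Mad2l1 at -0.0995, Ttk at -0.0466, Cenpe at -0.002, Spc25 at -0.033, Kif11 at -0.0762, Kif20a at -0.0178, Kif20b at -0.12 and Ckap2 at -0.0499. In leukemias 2, 5 and 6 it put Ccna2 at -0.025, Bub1 at -0.096, Mad2l1 at -0.16, Ttk at -0.0439, Cenpe at -0.0592, Nuf2 at -0.13, Spc25 at -0.13, Kif11 at -0.14, Kif20b at -0.25, Ckap2 at -0.041 and Mki67 at -0.0096. Median-of-ratios scaling put Cdk1 at 0.0215, Ect2 at 0.0044 and Top2a at 0.0304, leukemias 1, 3 and 4 put Cdk1 at 0.0724, Anln at 0.14, Ect2 at 0.18 and Top2a at 0.20, and a pseudocount of 0.1 put Kif20b at -0.0003. Leaving out single leukemias gave Cdk1 -0.0833 to 0.0037, Mad2l1 -0.0123 to 0.12, Ttk -0.0001 to 0.16, Kif20b -0.0886 to 0.14, Anln -0.18 to 0.0326, Ect2 -0.14 to 0.0636 and Top2a -0.0994 to 0.11. The causes were not tested. With 6 pairs and 1 mouse an arm, the number of leukemias limits the precision, and the files give no depth.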

Other observations

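Lengths of the transcript and of the gene were set beside the differences after the values were seen. Over the 50 members, Spearman's rho of the log2 difference with exon length was 0.034, -0.352, 0.053, -0.282, -0.138 and -0.251 in leukemias 1 to 6, and over 12245 genes it was 0.075, -0.097, 0.016, -0.060, -0.036 and -0.142. These are relations across genes of 1 pair of libraries, and genes are not independent replicates. In leukemia 2 the 17 shortest members had a median of 0.05 and the 17 longest -0.28. In leukemia 5 these medians were 0.51 and 0.48.

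Ube2s, the chain-extending enzyme of the anaphase-promoting complex, had another pattern across leukemias than most members. Its difference was 0.54 in leukemia 2 and 0.52 in leukemia 6, where the members had medians of -0.18 and -0.07, and -0.07 in leukemia 3, where 48 of 50 were higher with DEX. Rpl28 on the opposite strand overlaps 3.56% of its exon bases, and the use of strand in counting is not given. Ube2s was singled out after its values were seen.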
